A study of Homo sapiens with 24 samples.

Results

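A THP-1 line made to carry an inducible NOD1 gene was compared with its empty-vector counterpart before any induction. THP-1 is a human monocytic leukaemia line. The compared means rest on 8 of the 24 arrays of the series: 4 of the NOD1 line and 4 of the vector line, both chosen by their source labels and all without doxycycline (DOX). The spread behind standard errors and p-values was estimated over all 24. Per the labels' protocols, the NOD1 cells hold a FLAG-tagged NOD1 coding sequence behind a tetracycline-inducible (TRE) promoter in the lentiviral pSLIK_Neo vector, and the control cells hold the same vector empty. The third line of the series holds NLRP4, another NOD-like receptor, in that vector. All lines were infected at a low frequency, so that most cells have 1 integration, and were then selected with G418. Each is a stable pool that was made 1 time as far as the labels say. Cells were grown in the wells of a multiwell plate. In the 12 DOX-treated arrays, used here as a second look at the same lines, DOX was given at 1 µg/ml for 6 h.

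NOD1 is a cytosolic receptor that binds fragments of bacterial peptidoglycan containing diaminopimelic acid. It oligomerizes and recruits the kinase RIPK2, whose ubiquitination leads to NF-kB and MAP kinase signalling and to the expression of cytokines and chemokines. Monocytes express it at a low level, and an inducible promoter without its inducer can still be active to a small degree. Comparing uninduced lines therefore asks what the carrying of the construct, with whatever NOD1 it makes, goes with before DOX is added.

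Features of the design bound every value below. The plate order was set in advance without randomization, and the vector arrays carry numbers 1 to 4 while the NOD1-line arrays carry numbers 45 to 48, so the line of an array and its place cannot be told apart. The samples of a group are not said to come from separate cultures or transductions. The p-values thus measure the spread between samples of 1 pool, which may be technical, and a difference that arose when the pools were made cannot be told apart from an effect of NOD1. In RNA of whole cultures, fewer cells of a kind and less RNA per cell cannot be told apart either.

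The labels were checked with NOD1 and with cell markers. NOD1 read 8.17, 8.46, 8.17 and 8.54 on the vector arrays and 8.90, 8.65, 8.51 and 8.87 on the NOD1-line arrays. The lowest NOD1-line array, 8.51, lay just below the highest vector array, 8.54, so the groups overlapped. The difference was 1.32-fold (log2 difference 0.40, SE 0.135, adjusted p = 0.0299), and a two-sided exact permutation test gave p = 0.0571, where 0.0286 is the smallest p that 4 against 4 allows. Limma no longer called it when arrays were centred on their medians, or when vector_noDOX replicate 1 or replicate 3, or NOD1_noDOX replicate 1 or replicate 4, was left out. With DOX the difference was 4.36. NLRP4 (0.11) did not differ between the lines beyond the test's threshold (SE 0.188, adjusted p = 0.757).

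Both lines had the markers of THP-1. Lysozyme (LYZ) read 13.42, 13.35, 13.38 and 13.59 on the vector arrays and 13.88, 13.79, 13.87 and 13.87 on the NOD1-line arrays. Myeloperoxidase (MPO) read 7.92, 7.88, 7.89 and 7.79 on the vector arrays and 8.27, 7.99, 8.04 and 8.09 on the NOD1-line arrays. SPI1, the myeloid transcription factor PU.1, read 9.76, 9.81, 9.49 and 9.45 on the vector arrays and 10.16, 10.56, 10.31 and 10.30 on the NOD1-line arrays. All 3 were higher on the 4 NOD1-line arrays than on any vector array, and MPO stayed under the limit for dim signals given below in both lines. Over the lists for T and NK cells, B cells, erythroid cells, megakaryocytes, epithelium and fibroblasts, 1, 0, 0, 0, 0 and 0 genes were called higher and 0, 0, 0, 0, 1 and 0 lower, of 12, 9, 8, 8, 11 and 11. At an unadjusted limma p under 0.05 the counts were 2, 0, 0, 0, 0 and 1 higher and 0, 2, 2, 0, 1 and 0 lower. CD3D (−0.03), CD79A (0.02), COL1A1 (−0.08) and CDH1 (0.11) were among those without a call. Averaged over each list, the log2 level per array ran from 7.205 to 7.392, 7.669 to 7.762, 7.934 to 7.973, 7.842 to 7.972, 8.414 to 8.615 and 7.518 to 7.609 on the vector arrays, and from 7.324 to 7.386, 7.614 to 7.725, 7.893 to 7.953, 7.804 to 7.902, 8.242 to 8.355 and 7.494 to 7.616 on the NOD1-line arrays. Under the dim limit in both lines were 9, 4, 6, 5, 3 and 6 of these genes. The others were not, so signal over the limit does not by itself name a cell type. The ranges of the 2 lines overlapped except for the epithelial list, whose part in other results was not tested. The called genes were NKG7 (0.38), a cytotoxic granule membrane protein that monocytes can also make, and EPCAM (−1.89), an epithelial adhesion molecule. Calls were lost for LYZ and NKG7 with arrays centred on their medians, and for MPO in the values as deposited, with arrays centred on their medians, with only the 8 arrays compared, with only the 12 arrays without DOX or without vector_noDOX replicate 4 or in fits without NOD1_noDOX replicate 1.

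EPCAM read 7.70, 9.52, 8.93 and 9.90 on the vector arrays and 7.07, 7.81, 6.38 and 7.22 on the NOD1-line arrays. Its vector arrays spread widely and overlapped the NOD1-line arrays, and its second probe set was not called (−0.21).

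Array medians overlapped between the groups, but arrays differed in how closely they followed their group. Limma's array weights, lower for arrays that stray further, were 0.522, 0.611, 1.85 and 1.12 on the vector arrays. On the NOD1-line arrays they were 0.723, 0.498, 0.745 and 1.01, and replicate 2 there had the lowest weight of the 24 arrays. Its part in the results was not tested beyond leaving it out. The deposited medians of the vector arrays lay between 8.06 and 8.82 and those of the NOD1-line arrays between 8.30 and 8.81, and values below are log2 signals after quantile normalization of 18417 genes with 1 gene symbol. Arrays correlated across genes at 0.982 to 0.992 within the vector group, 0.982 to 0.987 within the NOD1-line group and 0.957 to 0.980 between them. The closest pair of arrays of 1 group still differed with an SD of 0.208. No negative control level was measured here, so the level under which 95% of the 361 olfactory receptor genes lay, 8.30, was used to mark dim signals. Where the lower group averaged at or under it, a fold is given as at least its value. Levels of different genes are not compared, since probe sets differ in brightness.

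Limma called 4592 of the 18417 genes at a Benjamini-Hochberg adjusted p under 0.05, which is 24.9% of those tested. Of these, 2399 were higher in the NOD1 line (13%) and 2193 lower (11.9%), and 6304 (34.2%) had an unadjusted p under 0.05. The 4 arrays of one line lay wholly above the 4 of the other for 3860 genes (21%), and 3354 of those were called. Rises were smaller than falls: among called genes the median was 0.46 for those higher and −0.60 for those lower, and 73 were at least 2-fold higher against 334 at least 2-fold lower. The split between rises and falls depended on the scaling. It was 1398 higher and 2433 lower with arrays centred on their medians, 3456 and 2012 with all probe sets normalized together, and 2198 and 1643 in the values as deposited. Differences are therefore relative to the normalized distribution, in which the median gene stood at 0.03.

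**Figure D1:**
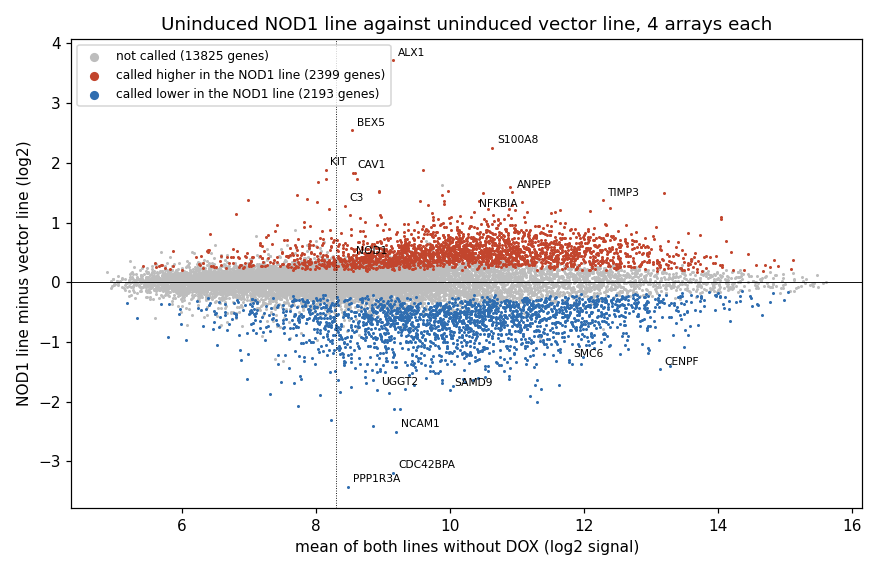
Difference between the uninduced lines (NOD1 line minus vector line, log2, vertical axis) against the mean log2 signal of both (horizontal axis), 1 point per gene, 4 arrays per line. Red marks the 2399 genes called higher, blue the 2193 called lower and grey the rest, and the dotted vertical line is the 8.30 limit for dim signals. The largest rise is ALX1 and the largest fall PPP1R3A, and falls extend further from 0 than most rises.

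The same lines were then looked at on their 8 DOX-treated arrays, whose values do not enter the group means of the first comparison but share its normalization and its estimate of the spread. There 4746 genes were called (25.8%), 2502 higher (13.6%) and 2244 lower (12.2%). Of the 2399 genes higher without DOX, 1749 were higher again, which is 72.9% of the first list and 69.9% of the second. Of the 2193 lower, 1763 were lower again, 80.4% of the first list and 78.6% of the second. With each comparison normalized and fitted on its own 8 arrays, an alternative added after the data were seen, 1342 genes were higher and 1463 lower in both and 0 were called in opposite directions. Of the calls without DOX, 1613 were then higher and 1674 lower, and of those with it, 2639 and 2377. In the fit over all arrays, signs were the same for 98.3% of the rises and 98.5% of the falls. All 73 genes with a rise of at least 2-fold were called higher again, as were 315 of the 334 with a fall of at least 2-fold. Called both times but in opposite directions were 2 genes, chosen here after their values were seen. LONRF3, a RING finger protein, was 0.34 higher without DOX (SE 0.0843, adjusted p = 0.00385) and at −0.26 with it (adjusted p = 0.0233). DEPTOR, an inhibitor of mTOR, was at −0.32 without DOX (SE 0.112, adjusted p = 0.0364) and at 0.35 with it (adjusted p = 0.0211). A test of the change in line difference with DOX called only NOD1, and 745 genes had an unadjusted p under 0.05 there. Plate place is the same kind of block on these arrays, so this second look does not separate line from place.

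**Figure D2:**
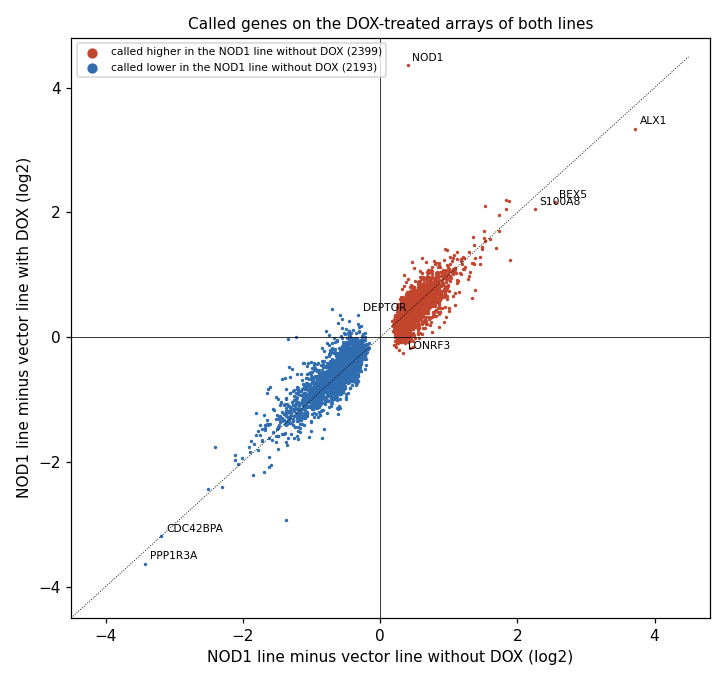
Line differences (NOD1 line minus vector line, log2) of the 4592 genes called without DOX, on the uninduced arrays (horizontal axis) and on the DOX-treated arrays (vertical axis), 4 arrays per group, with the dotted line marking equal values. Red genes were higher and blue genes lower without DOX, and most stay on their side with DOX. NOD1 stands apart at 0.40 without and 4.36 with DOX.

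The NLRP4 line, made in the same vector, had few calls against the vector line. Limma called 7 genes with DOX (0.038%; 2 higher, 0.0109%, and 5 lower, 0.0271%) and 3 without (0.0163%; 2 higher, 0.0109%, and 1 lower, 0.00543%), and 1126 and 914 had an unadjusted p under 0.05. Against the DOX-treated NLRP4 line, the DOX-treated NOD1 line had 4684 calls (25.4%), 2465 higher (13.4%) and 2219 lower (12%). The group means of that comparison share no array with the uninduced one, and 1624 of the 2399 rises and 1634 of the 2193 falls were called again in it. These are 67.7% and 74.5% of the first lists, and 65.9% and 73.6% of the lists of the DOX-treated comparison.

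Among the 30 largest rises with separated arrays several genes encode cell-surface and secreted proteins. ANPEP, the myeloid surface peptidase CD13, read 10.60, 10.06, 10.14 and 9.90 on the vector arrays and 11.80, 12.03, 11.21 and 11.69 on the NOD1-line arrays. CD93, a C-type lectin domain receptor of myeloid and endothelial cells, read 9.40, 8.94, 9.19 and 9.08 on the vector arrays and 10.92, 10.53, 10.30 and 10.69 on the NOD1-line arrays. TIMP3, a matrix-bound inhibitor of metalloproteinases, read 11.83, 11.29, 11.37 and 11.90 on the vector arrays and 13.08, 12.92, 12.93 and 12.93 on the NOD1-line arrays. All 4 NOD1-line arrays lay above all 4 vector arrays for each of these genes, which the choice of the 30 required. ANPEP rose 2.84-fold (log2 difference 1.51, SE 0.160, adjusted p = 2.39e-07), CD93 2.74-fold (log2 difference 1.46, SE 0.134, adjusted p = 3.85e-08) and TIMP3 2.59-fold (log2 difference 1.37, SE 0.197, adjusted p = 1.3e-05). A second probe set of TIMP3 rose by 0.87.

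Secreted and enzyme genes of the same rank were CHI3L1 (1.49), a chitinase-like glycoprotein, TRHDE (1.29), a peptidase that cleaves thyrotropin-releasing hormone, and AKR1C2 (1.51), an aldo-keto reductase. Contractile and actin-binding genes stood beside them: TPM2 (1.49), a tropomyosin, MYL9 (1.34), a myosin light chain, and CNN2 (1.29), a calponin. MYL9 read 10.59, 10.10, 10.62 and 10.30 on the vector arrays and 11.89, 11.79, 11.55 and 11.71 on the NOD1-line arrays. TPM2 read 9.92, 9.56, 9.66 and 9.84 on the vector arrays and 11.27, 11.33, 10.99 and 11.36 on the NOD1-line arrays. Neither gene's groups overlapped, which the choice of the 30 also required. SLC7A11 (1.35), the cystine/glutamate exchanger, ATP6V0B (1.36), a membrane subunit of the vacuolar proton pump, and RAB1B (1.31), a GTPase of early secretory transport, were also among the 30. C3 (1.28), the central complement component, stood just outside them. C3 read 7.80, 7.40, 7.83 and 8.16 on the vector arrays and 8.98, 9.10, 8.85 and 9.37 on the NOD1-line arrays, which is at least 2.42-fold higher, since the vector group was dim.

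The glutamate receptor gene GRIA3 was raised too (log2 difference 1.38, SE 0.218, adjusted p = 4.18e-05), with all 4 vector arrays under the dim limit, as were the zinc finger genes ZNF528 (1.39) and ZNF772 (1.34). The interferon-induced IFI27 (1.36) and the olfactory receptor pseudogene OR52K3P (1.46) were of the same rank. With DOX the line differences of ANPEP, CD93, TIMP3, CHI3L1, MYL9 and IFI27 were 1.70, 1.29, 1.17, 1.41, 1.18 and 1.49. In the NLRP4 line without DOX the same genes averaged 9.78, 8.95, 12.17, 12.40, 10.52 and 8.68, against 10.18, 9.15, 11.60, 12.45, 10.40 and 8.86 in the vector line.

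Among the 30 largest falls with separated arrays were MCUB, UGGT2 and SAMD9. MCUB, the dominant-negative subunit of the mitochondrial calcium uniporter, read 8.88, 9.52, 9.23 and 9.50 on the vector arrays and 7.22, 7.62, 7.55 and 7.37 on the NOD1-line arrays. UGGT2, a glycoprotein folding sensor of the endoplasmic reticulum, read 9.71, 9.82, 10.01 and 9.69 on the vector arrays and 7.78, 7.71, 8.48 and 8.05 on the NOD1-line arrays. SAMD9, an interferon-inducible restriction factor, read 10.56, 11.12, 11.12 and 10.83 on the vector arrays and 9.32, 8.58, 9.45 and 9.02 on the NOD1-line arrays. Separation was required by the choice of the 30, and here it was by more than 1 log2 unit in each case. MCUB fell at least 3.58-fold (log2 difference −1.84, SE 0.216, adjusted p = 9.5e-07), UGGT2 at least 3.49-fold (log2 difference −1.80, SE 0.126, adjusted p = 6.37e-10) and SAMD9 3.51-fold (log2 difference −1.81, SE 0.150, adjusted p = 7.79e-09).

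Others of the 30 were KIF20B (−1.78), a mitotic kinesin, ASPM (−1.72), a spindle pole protein, CEP44 (−1.71), CEP112 (−1.67) and CEP135 (−1.64), centriolar proteins, and AKAP9 (−1.68), a scaffold of the Golgi and the centrosome. Genome maintenance genes among them were ZGRF1 (−1.74), a helicase, and RADX (−1.69), which binds single-stranded DNA at replication forks. RB1CC1 (−1.67), the scaffold FIP200 of the autophagy-initiating kinase complex, ESF1 (−1.72), a nucleolar protein of ribosomal RNA processing, CCDC186 (−1.78), a dense-core vesicle protein, and the zinc finger gene ZNF678 (−1.64) were further members. RB1CC1 read 10.67, 11.29, 11.13 and 11.12 on the vector arrays and 9.54, 8.64, 9.91 and 9.44 on the NOD1-line arrays. AKAP9 read 10.76, 10.67, 10.63 and 10.81 on the vector arrays and 9.38, 8.77, 9.06 and 8.93 on the NOD1-line arrays. Their groups did not overlap, which the choice of the 30 required. A second probe set of ZGRF1 fell by 1.38 and one of ZNF678 by 1.24.

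**Figure D3:**
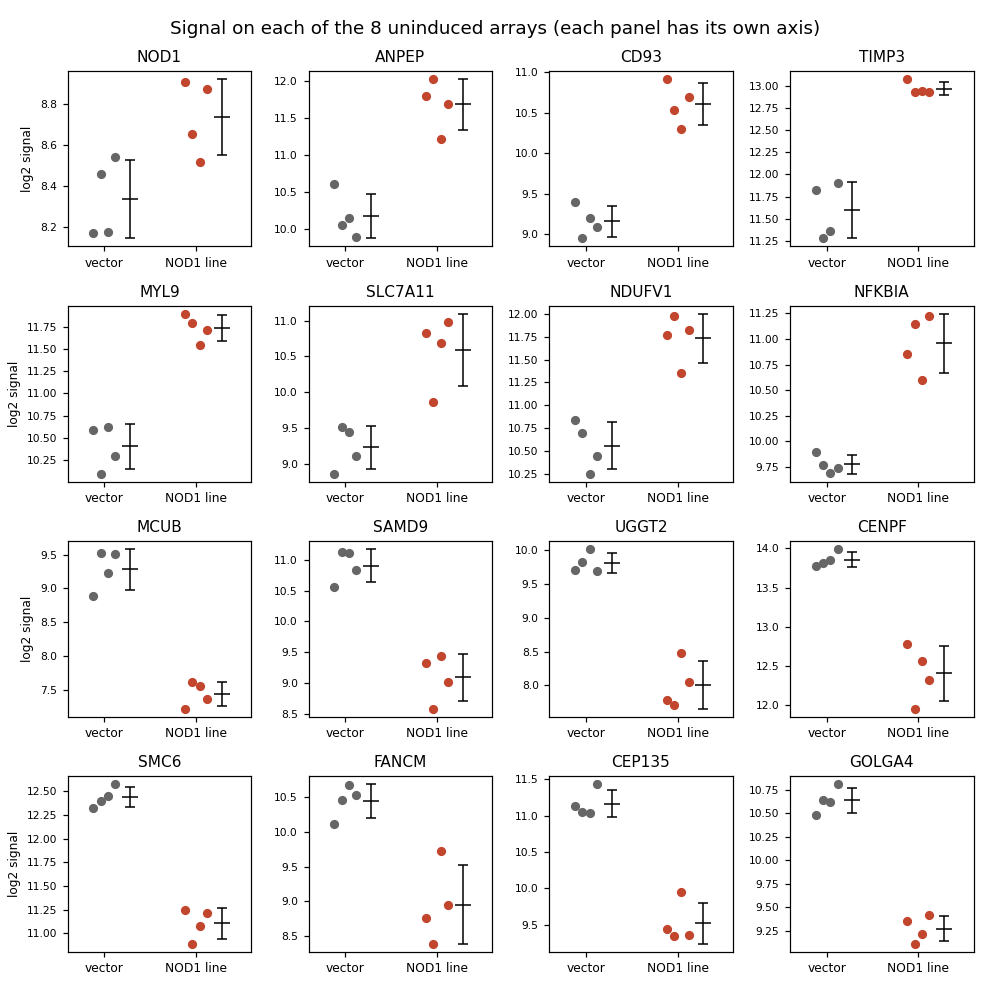
Log2 signal of 16 genes on each of the 8 uninduced arrays (grey, vector line; red, NOD1 line), with the mean and SD of the 4 arrays as a black bar beside them; each panel has its own vertical axis. The groups overlap for NOD1 and are separated for the 15 others, of which 7 are higher and 8 lower in the NOD1 line.

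Genes of mitosis split, with more falls than rises. The mitotic programme of vertebrate cells runs through cyclin-dependent kinase, the kinetochore and spindle motors, and many of its promoters carry a cell cycle homology region (CHR), bound by the DREAM and MuvB complexes. Of 60 measured G2/M and kinetochore genes, 29 were lower (48.3%, against 11.9% of all genes) and 9 higher (13% of all genes were), with a median of −0.24 against 0.03 for all genes. With DOX the counts were 8 higher and 29 lower, and 27 of the 29 were lower again. Counts for the G2/M list were 4 higher and 28 lower with arrays centred on their medians.

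CENPF, a kinetochore protein, read 13.77, 13.81, 13.86 and 13.99 on the vector arrays and 12.78, 11.95, 12.56 and 12.32 on the NOD1-line arrays. HMMR, a spindle assembly factor, read 13.12, 13.05, 13.18 and 13.19 on the vector arrays and 12.22, 11.86, 12.34 and 11.95 on the NOD1-line arrays. CDC20, the activator of the anaphase-promoting complex, read 11.05, 10.85, 10.70 and 10.60 on the vector arrays and 11.57, 11.97, 11.58 and 11.85 on the NOD1-line arrays. CENPF and HMMR were lower on all 4 NOD1-line arrays than on any vector array, and CDC20 was higher on all 4. CENPF differed by −1.45 (SE 0.118, adjusted p = 6.07e-09), HMMR by −1.04 (SE 0.0922, adjusted p = 1.93e-08) and CDC20 by 0.94 (SE 0.0965, adjusted p = 1.58e-07). The kinesins KIF11 (−1.21) and KIF14 (−1.31) fell as well, while KIF2C (0.76), a microtubule depolymerase of the centromere, and CDCA8 (0.72), a subunit of the chromosomal passenger complex, rose.

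The CHR letters were found in members of both directions. TTTGAA, searched on both strands from 250 bases before to 50 after the start of the transcripts in the RefSeq table of GRCh38.p14, was in 15.7% of the 14239 measured genes with a promoter there. It was in 20 of 26 lower and 5 of 8 higher G2/M genes with a promoter, in 21.2% of all genes called lower and in 11.6% of all called higher. In the centrosome list it was in 13 of 27 lower and 0 of 5 higher members with a promoter, and in the cohesin and condensin list in 6 of 16 lower and 2 of 3 higher. No test of the difference between directions was run. Promoters of genes called higher had a median of 65.7% G and C, against 62.2% for those called lower and 62.7% for all measured genes. The part of base content in the motif shares was not tested. The following 60-base stretches upstream of the start show it in capitals, on either strand, first in 3 genes that rose and then in 4 that fell.
CDC20 (chr1:43358889-43358948, plus strand): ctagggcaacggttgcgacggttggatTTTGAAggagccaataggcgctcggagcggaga
CDCA8 (chr1:37692456-37692515, plus strand): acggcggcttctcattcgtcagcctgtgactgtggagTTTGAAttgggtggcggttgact
PLK1 (chr16:23678829-23678888, plus strand): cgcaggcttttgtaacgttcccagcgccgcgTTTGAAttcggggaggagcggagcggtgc
KIF23 (chr15:69414267-69414326, plus strand): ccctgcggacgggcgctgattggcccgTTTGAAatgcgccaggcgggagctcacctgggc
KIF11 (chr10:92593070-92593129, plus strand): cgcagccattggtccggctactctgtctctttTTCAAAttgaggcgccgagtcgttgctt
HMMR (chr5:163460572-163460631, plus strand): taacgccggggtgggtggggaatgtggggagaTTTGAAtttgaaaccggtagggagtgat
ASPM (chr1:197146750-197146809, minus strand): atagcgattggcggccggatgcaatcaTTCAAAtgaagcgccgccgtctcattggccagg
PLK1 is a mitotic kinase and KIF23 a motor of cytokinesis. In KIF11 and ASPM they lie on the opposite strand. The match is to letters in a window and does not show binding.

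The called members also differed in gene size. The median genomic span, exons and introns together in RefSeq, was 53.1 kb for the 29 lower members, 19.5 kb for the 9 higher and 19.5 kb for the others. Over all genes the shares changed with span in the same way. The share called lower climbed from 2.99% among genes with the shortest span (up to 6.25 kb) to 22.0% among those with the longest (over 85.0 kb), the ends of 5 groups of equal size, and the share called higher went from 12.6% to 8.54%. Among genes brighter than the median gene the share called lower went from 3.58% to 36.8%. Shares also grew with signal: of 10 groups of equal size by signal, the dimmest had 2.01% higher and 1.63% lower, and the one next to the brightest 28.3% and 28.2%. On the DOX-treated arrays the shares lower were 3.24% and 22.1% in the groups of shortest and longest span. The NLRP4 line had a median difference from the vector line of 0.00 in the group of longest span without DOX. Span and signal move with the gene groups below, so their median spans are given beside them, and their part in those results was not tested.

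**Figure D4:**
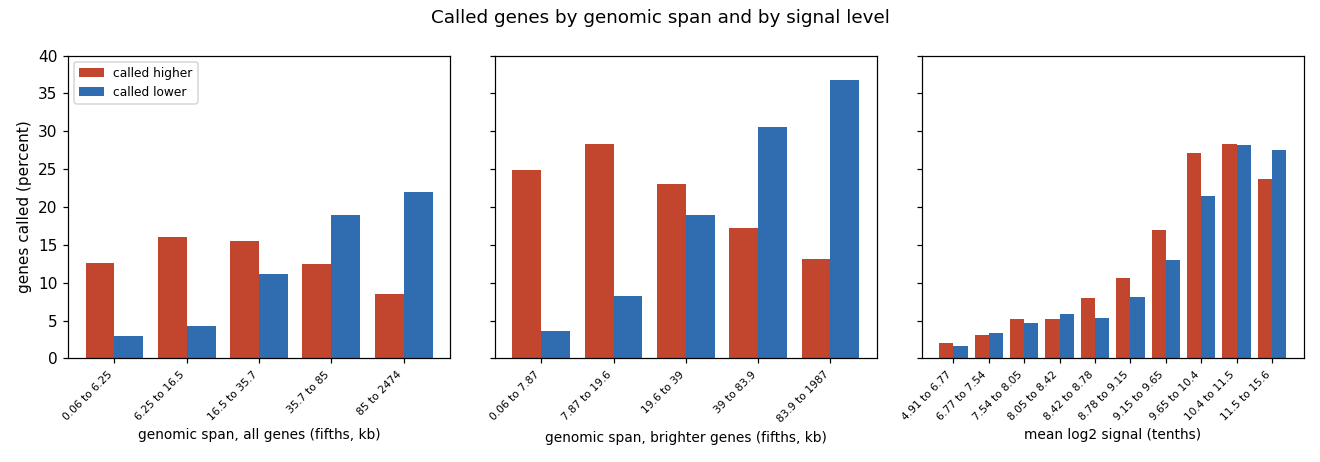
Percent of genes called higher (red) and lower (blue) in the NOD1 line, in 5 groups of equal size by genomic span over all genes (left) and over genes brighter than the median gene (middle), and in 10 groups of equal size by mean log2 signal (right). The share called lower grows from 2.99% to 22.0% with span over all genes and from 3.58% to 36.8% in the brighter ones.

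Cohesin and condensin are ring-shaped SMC complexes that hold sister chromatids together and fold chromosomes. Of 27 measured genes of these complexes and their regulators, 19 were lower (70.4%) and 3 higher, with a median of −0.62, and all 19 lower ones were lower again with DOX. SMC2, a condensin core subunit, read 13.44, 13.57, 13.51 and 13.65 on the vector arrays and 12.64, 11.81, 12.60 and 12.40 on the NOD1-line arrays. SMC3, a cohesin core subunit, read 13.45, 13.46, 13.56 and 13.67 on the vector arrays and 12.67, 11.95, 12.57 and 12.39 on the NOD1-line arrays. SMC6, of the third SMC complex, read 12.33, 12.40, 12.45 and 12.58 on the vector arrays and 11.25, 10.89, 11.08 and 11.21 on the NOD1-line arrays. None of these 3 genes overlapped between the lines. SMC6 had the largest fall of the list (log2 difference −1.33, SE 0.0930, adjusted p = 6.37e-10), beside SMC5 (−1.25), SMC4 (−1.09) and STAG2 (−0.95). CDCA5 (1.10), the cohesin-protecting factor sororin, rose. Called-lower members had a median span of 73.6 kb and the 3 higher ones 75.3 kb.

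DNA repair by homologous recombination and the Fanconi pathway, which removes crosslinks, showed 24 of 39 genes lower (61.5%) and 5 higher, with a median of −0.37. FANCM, the translocase that recognizes stalled forks, read 10.11, 10.46, 10.68 and 10.54 on the vector arrays and 8.76, 8.39, 9.73 and 8.94 on the NOD1-line arrays. RAD50, of the MRN break sensor, read 12.55, 12.58, 12.75 and 12.71 on the vector arrays and 11.73, 10.53, 11.44 and 11.40 on the NOD1-line arrays. BRCA1 read 11.62, 11.78, 11.69 and 11.55 on the vector arrays and 10.75, 10.48, 10.99 and 11.14 on the NOD1-line arrays. The NOD1-line arrays lay below the vector arrays throughout. FANCM fell 2.81-fold (log2 difference −1.49, SE 0.186, adjusted p = 2.08e-06), and the kinase gene ATM (−0.87), the polymerase gene POLQ (−0.87) and FANCB (−1.01) fell too. The shorter genes RAD54L (0.59), a motor protein of strand exchange, and MUS81 (0.52), a nuclease, rose. Median spans were 93.1 kb for the lower and 10.3 kb for the higher genes, and 21 of the 24 were lower again with DOX. Counts for the recombination list were 3 higher and 23 lower with arrays centred on their medians.

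By contrast, genes of the replication fork rose more often than they fell: 20 of 51 were higher (39.2%) and 7 lower, with a median of 0.24 and 20 higher and 5 lower with DOX. POLA2, the accessory subunit of DNA polymerase alpha, read 9.80, 9.78, 9.87 and 9.75 on the vector arrays and 10.82, 10.55, 10.31 and 10.65 on the NOD1-line arrays. POLA1, the catalytic subunit of the same enzyme, read 11.99, 12.02, 12.09 and 12.10 on the vector arrays and 11.60, 10.98, 11.47 and 11.45 on the NOD1-line arrays. RFC1, the large subunit of the clamp loader, read 11.94, 12.20, 12.23 and 12.27 on the vector arrays and 11.41, 10.64, 11.71 and 11.18 on the NOD1-line arrays. These subunits of polymerase alpha went apart, POLA2 at 0.78 and POLA1 at −0.67, without overlap of the arrays in either. RFC1 fell (log2 difference −0.92, SE 0.145, adjusted p = 3.52e-05), and CCNE1 (0.76), RPA2 (0.75) and ORC6 (0.66) rose. The 7 lower genes spanned a median of 82.1 kb and the 20 higher 23.6 kb. Counts for replication genes were 10 higher and 6 lower with arrays centred on their medians.

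Centrosome and centriole genes stood next to them: 30 of 54 were lower (55.6%) and 5 higher, with a median of −0.55 and 5 higher and 30 lower with DOX. Centrioles organize the spindle poles and template cilia. CEP135 read 11.13, 11.05, 11.04 and 11.43 on the vector arrays and 9.43, 9.35, 9.94 and 9.36 on the NOD1-line arrays. CEP152, which recruits the centriole duplication kinase, read 11.12, 11.23, 11.20 and 11.32 on the vector arrays and 10.10, 9.23, 10.29 and 9.67 on the NOD1-line arrays. CNTLN, centlein, read 11.39, 11.55, 11.52 and 11.62 on the vector arrays and 10.34, 9.74, 10.57 and 10.08 on the NOD1-line arrays. The lines were fully separated, and CEP135 was 3.12-fold lower (log2 difference −1.64, SE 0.124, adjusted p = 1.76e-09). CEP85 (0.86) was among the few that rose. Of cilium and intraflagellar transport genes 15 of 51 were lower (29.4%) and 5 higher, among them IFT74 (−1.47), IFT80 (−1.18), DYNC2H1 (−1.25), the retrograde motor, and CC2D2A (−1.37), of the transition zone. Lower members spanned 88.7 kb in the centrosome list and 106 kb in the cilium list. Counts for centrosome genes were 2 higher and 31 lower, and for cilium genes 2 and 15, with arrays centred on their medians.

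Golgins are long tethers that capture vesicles. GOLGA4 read 10.48, 10.64, 10.62 and 10.81 on the vector arrays and 9.35, 9.11, 9.22 and 9.41 on the NOD1-line arrays. GCC2 read 11.06, 11.19, 11.34 and 11.42 on the vector arrays and 9.85, 9.65, 10.02 and 9.64 on the NOD1-line arrays. Both fell with separate groups, GOLGA4 by 1.37 (SE 0.143, adjusted p = 1.92e-07), and so did GOLGB1 (−1.32), TRIP11 (−1.28) and TMF1 (−1.07). In their list 12 of 36 were lower (33.3%) and 7 higher (19.4%), among the latter TRAPPC3 (0.74) and VPS52 (0.56), and the median was 0.01. Of the COPI, COPII and SNARE genes, which form and fuse vesicles, 20 of 53 were higher (37.7%) and 7 lower, with ARF1 (0.71), STX4 (0.70) and SEC13 (0.56) among the rises and SEC23A (−0.86) among the falls. The symbol family CCDC, coiled-coil domain genes of no common role, had 19 of 114 lower and 7 higher, and the ankyrin repeat family ANKRD 12 of 60 and 2. Counts for the golgin list were 4 higher and 11 lower, for COPI, COPII and SNARE genes 9 and 6, and for the CCDC family 2 and 21, with arrays centred on their medians. Counts for COPI, COPII and SNARE genes were 12 higher and 3 lower with only the 8 arrays compared.

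Nuclear pore and transport genes went both ways, 14 of 43 lower (32.6%) and 11 higher (25.6%). Of all genes with a mean signal from 11.52 to 15.6, 27.5% were lower and 23.7% higher. RANBP2, of the cytoplasmic filaments, read 12.64, 12.44, 12.62 and 12.69 on the vector arrays and 11.81, 10.90, 11.73 and 11.72 on the NOD1-line arrays. TPR, of the nuclear basket, read 13.41, 13.31, 13.38 and 13.46 on the vector arrays and 12.72, 11.95, 12.50 and 12.23 on the NOD1-line arrays. AAAS, the pore protein aladin, read 10.93, 10.58, 10.42 and 10.07 on the vector arrays and 11.45, 11.57, 11.09 and 11.51 on the NOD1-line arrays. RANBP2 and TPR fell by 1.06 and 1.04, and AAAS rose by 0.90, each without overlap. The list's majority depended on the setting: higher calls outnumbered lower ones in 2 of 18 settings and lower ones in 14. Autophagy genes were also mixed (7 higher and 8 lower of 43), with PIK3C3 (−0.81) and PIK3R4 (−0.80), the lipid kinase and its regulator, lower. These shares, 16.3% and 18.6%, stood against 13% and 11.9% over all genes. Endosome genes had 17 higher (29.3%) and 14 lower (24.1%) of 58. Of all genes with a mean signal from 10.42 to 11.52, 28.3% were higher and 28.2% lower. The ESCRT genes VPS4A (1.09) and TSG101 (0.63) rose, and EEA1 (−1.11), an early endosome tether, and VPS13A (−1.48), a lipid transfer protein, fell. Counts for autophagy genes were 10 higher and 7 lower with all probe sets normalized together. Counts for autophagy genes were 9 higher and 8 lower without NOD1_noDOX replicate 1. Counts for autophagy genes were 8 higher and 7 lower without NOD1_noDOX replicate 3. Counts for endosome genes over the 18 settings ran from 7 to 21 higher and from 10 to 15 lower, with 7 higher and 13 lower on arrays centred on their medians, and they moved by over 1.5 times or turned their majority also when vector_noDOX replicate 3 or vector_noDOX replicate 4 or NOD1_noDOX replicate 2 was left out.

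Genes of ubiquitin attachment and removal were more often lower. Cullin-RING and F-box ligase genes had 16 of 53 lower (30.2%) and 9 higher, and the USP family of deubiquitinases 15 of 52 lower (28.8%) and 5 higher. USP53 read 9.61, 9.63, 9.63 and 9.85 on the vector arrays and 7.86, 7.66, 8.92 and 8.47 on the NOD1-line arrays. KLHL5, a substrate adaptor of cullin 3, read 10.30, 10.28, 10.47 and 10.53 on the vector arrays and 8.95, 8.87, 9.05 and 9.38 on the NOD1-line arrays. USP6NL, a RAB GTPase-activating protein filed under this symbol family, read 9.92, 9.92, 9.59 and 9.68 on the vector arrays and 8.46, 8.17, 8.88 and 8.72 on the NOD1-line arrays. Each was lower on all 4 NOD1-line arrays. With DOX the line difference was −1.09 for USP53, −0.48 for KLHL5 and 0.01 for USP6NL. The change with DOX had an adjusted p of 0.234 for KLHL5 and 0.299 for USP6NL, so neither passed that test. CUL4B (−0.76) and CUL2 (−0.72), cullin scaffolds, fell, and DDB1 (0.75), the adaptor of cullin 4, rose. Counts for the ligases were 3 higher and 17 lower, and for the USP family 1 and 15, with arrays centred on their medians.

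Of zinc finger genes named ZNF, many of them repressors of the KRAB class, 126 of 494 were lower (25.5%) and 28 higher (5.67%), with a median of −0.08. Lower calls outnumbered higher ones in all 18 settings, and 102 of the 126 were lower again with DOX. ZNF91, a repressor of retrotransposons, read 10.87, 11.07, 10.91 and 11.01 on the vector arrays and 9.74, 9.07, 10.03 and 9.61 on the NOD1-line arrays. ZNF518A read 11.12, 11.28, 11.35 and 11.53 on the vector arrays and 10.18, 9.31, 9.91 and 9.55 on the NOD1-line arrays. ZNF544 read 7.99, 7.83, 7.98 and 7.97 on the vector arrays and 9.29, 9.24, 8.90 and 8.82 on the NOD1-line arrays. ZNF91 and ZNF518A fell by 1.35 and 1.58 and ZNF544 rose by 1.12, with no overlap in any. Related genes share sequence, so signals of near copies may be mixed. Lower members spanned 34.7 kb and higher ones 14.8 kb.

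Chromatin regulators were called in both directions, at shares near those of genes of like signal. Of SWI/SNF and other remodeller genes 13 of 38 were higher (34.2%) and 11 lower (28.9%). Of histone methylation and Polycomb genes 12 and 12 of 47 were (25.5% each way). Over all genes the shares were 13% and 11.9%. Among all genes with a mean signal from 9.65 to 10.42 they were 27.2% and 21.4%, and from 10.42 to 11.52 they were 28.3% and 28.2%. ATRX, a histone variant loading factor, read 11.58, 11.55, 11.75 and 11.92 on the vector arrays and 10.34, 9.50, 10.32 and 10.12 on the NOD1-line arrays. DAXX, its partner, read 10.76, 10.19, 10.20 and 10.48 on the vector arrays and 11.31, 11.60, 10.93 and 11.23 on the NOD1-line arrays. ATRX was lower and DAXX higher on every NOD1-line array (−1.63 and 0.86), and a second probe set of ATRX fell by 1.92. PCGF5 (−1.61), a Polycomb RING finger gene, and SUZ12 (−0.75) fell, and SETDB1 (0.76), a histone lysine methyltransferase, and KDM4A (0.63), a demethylase, rose. The DNA demethylase TET2 (−0.72) fell, and a second probe set of it by 0.95. Of DNA methylation genes 4 of 16 were lower and 1 higher. Counts for the remodeller list were 10 higher and 11 lower with arrays centred on their medians.

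Redox genes went one way. NRF2 is a transcription factor that is degraded through KEAP1 until oxidants or electrophiles stabilize it, and it binds antioxidant response elements. Of 30 measured NRF2 target and glutathione genes, 16 were higher (53.3%) and 0 lower by limma, and 0 lower also at an unadjusted p under 0.05, with a median of 0.34. With DOX, 15 of the 16 were higher again, and 1 gene of the list was lower. The median span of the higher members was close to that of the others (20.7 kb against 26.5 kb).

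The cystine importer SLC7A11 read 8.87, 9.52, 9.45 and 9.11 on the vector arrays and 10.83, 9.86, 10.69 and 10.98 on the NOD1-line arrays. GSR, glutathione reductase, read 12.16, 11.99, 11.77 and 11.85 on the vector arrays and 12.71, 12.61, 12.52 and 12.67 on the NOD1-line arrays. PGD, an NADPH-producing enzyme of the pentose phosphate pathway, read 11.31, 11.29, 11.15 and 11.21 on the vector arrays and 12.25, 12.32, 11.89 and 12.18 on the NOD1-line arrays. All 3 were separated, with SLC7A11 rising 2.56-fold (log2 difference 1.35, SE 0.198, adjusted p = 1.58e-05) and GSR 1.61-fold (log2 difference 0.69, SE 0.0969, adjusted p = 1.04e-05). AKR1C1 and AKR1C2 are near copies whose probes may read both. The element core TGACNNNGC was in 18.3% of all measured genes with a promoter, in 9 of 24 genes of the list and in 6 of its 13 higher genes with a promoter. Stretches of 4 of those genes show it in capitals.
ME1 (chr6:83431155-83431214, minus strand): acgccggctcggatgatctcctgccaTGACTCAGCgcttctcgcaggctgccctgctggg
GSTP1 (chr11:67583720-67583779, plus strand): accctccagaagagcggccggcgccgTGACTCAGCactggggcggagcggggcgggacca
GSTM1 (chr1:109687626-109687685, plus strand): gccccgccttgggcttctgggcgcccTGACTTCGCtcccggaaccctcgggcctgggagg
PGD (chr1:10398837-10398896, plus strand): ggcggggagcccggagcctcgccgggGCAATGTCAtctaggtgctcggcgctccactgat
ME1 makes NADPH from malate, and GSTP1 and GSTM1 are glutathione transferases. In PGD the letters lie on the opposite strand.

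The amino acid response driven by ATF4 was higher in 13 of 32 genes (40.6%) and lower in 3. SHMT2 (0.95), the mitochondrial serine hydroxymethyltransferase, and VLDLR (0.56) were among the rises. ASNS, asparagine synthetase, a standard target, read 10.46, 10.73, 10.40 and 10.48 on the vector arrays and 9.59, 10.23, 9.80 and 10.18 on the NOD1-line arrays. It was lower on all 4 NOD1-line arrays (log2 difference −0.57, SE 0.120, adjusted p = 8.53e-04), while most called members of the list were higher, and stood at −0.25 with DOX. The element core TGATGNAA, in 3.59% of all measured genes with a promoter, was in 8 of 25 members and in 7 of 17 cytosolic aminoacyl-tRNA synthetases. It is shown in capitals in ASNS, which fell, and in the amino acid transporter SLC1A5 and the synthetase AARS1, which rose.
ASNS (chr7:97872443-97872502, minus strand): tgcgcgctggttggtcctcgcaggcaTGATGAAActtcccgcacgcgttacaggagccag
SLC1A5 (chr19:46784878-46784937, minus strand): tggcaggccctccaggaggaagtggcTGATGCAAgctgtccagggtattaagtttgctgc
AARS1 (chr16:70289660-70289719, minus strand): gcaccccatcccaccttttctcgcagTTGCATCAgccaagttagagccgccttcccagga
The letters are on the gene's own strand in ASNS and SLC1A5 and on the other in AARS1. A second probe set of SLC1A5 was not called (0.11). Of 20 cytosolic synthetases 9 were higher (45.0%), with FARSA (1.02) and MARS1 (0.77) among them, and 3 lower, with EPRS1 (−0.36) and LARS1 (−0.31). The subunits of the phenylalanine enzyme differed in sign, FARSA at 1.02 and FARSB at −0.25. Counts for the cytosolic synthetases were 4 higher and 2 lower with arrays centred on their medians. Calls were lost for FARSB in the values as deposited, with arrays centred on their medians, with only the 8 arrays compared, with only the 12 arrays without DOX or without vector_noDOX replicate 2 or 3 or in fits without NOD1_noDOX replicate 2 or 4.

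Chaperones of the endoplasmic reticulum were higher in 14 of 29 genes (48.3%) and lower in 2. HYOU1, an ER chaperone induced by hypoxia, read 10.49, 10.31, 10.16 and 10.07 on the vector arrays and 11.58, 11.81, 11.15 and 11.40 on the NOD1-line arrays. The groups were separated, and SEC61A1 (0.67), the channel of protein import, rose with it. EIF2AK3 (−0.58), the stress sensor PERK, fell. Cytosolic chaperones had 10 of 30 higher and 2 lower, with CDC37 (0.81) and STIP1 (0.59), co-chaperones of HSP90, up and HSPA4 (−0.37) down. Metallothioneins and zinc transporters were called in both directions: MT1F (0.66) and MT1G (0.62), metal-binding proteins, and their regulator MTF1 (0.86) rose, while the importers SLC39A8 (−0.76) and SLC39A10 (−1.03) and the exporter-family gene SLC30A7 (−0.51) fell. That list had 6 higher and 6 lower of 25. Counts for ER chaperones were 7 higher and 1 lower, and for cytosolic chaperones 4 and 2, with arrays centred on their medians. Counts for the metallothionein and zinc list were 11 higher and 6 lower with all probe sets normalized together.

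Nuclear genes for mitochondrial proteins had more rises than falls in the lists that follow, but not all lists exceeded the share of rises over all genes. Over all genes 13% were higher and 11.9% lower. Complex I, the entry point of electrons from NADH, had 18 of 34 genes higher (52.9%) and 1 lower, with a median of 0.27, and 16 of the 18 were higher again with DOX. NDUFV1, the subunit that binds NADH, read 10.84, 10.70, 10.26 and 10.45 on the vector arrays and 11.77, 11.98, 11.36 and 11.83 on the NOD1-line arrays. NDUFA5 read 12.08, 12.25, 12.14 and 12.13 on the vector arrays and 11.46, 11.74, 11.99 and 11.71 on the NOD1-line arrays. NDUFV1 rose 2.25-fold (log2 difference 1.17, SE 0.133, adjusted p = 6.38e-07) and NDUFA5 fell, each without overlap. Complexes II to IV had 8 of 23 higher (34.8%) and 1 lower, among the rises CYC1 (0.89) and COX8A (0.75). ATP synthase had 3 of 17 higher (17.6%) and 1 lower (5.88%). Mitochondrial aminoacyl-tRNA synthetases had 1 of 16 higher by limma (6.25%), under the share over all genes, and 0 lower. At an unadjusted p under 0.05 they had 4 higher and 1 lower. Counts for complex I were 5 higher and 1 lower, and for complexes II to IV 2 and 0, with arrays centred on their medians. Counts for complex I were 11 higher and 1 lower with only the 8 arrays compared. Counts for ATP synthase over the 18 settings ran from 0 to 5 higher and from 0 to 1 lower, with 0 higher and 0 lower on arrays centred on their medians.

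Proteins of the mitochondrial ribosome, which translates the organelle's own messages, were higher in 30 of 74 genes (40.5%) and lower in 4, with a median of 0.26. MRPL37 read 11.96, 11.95, 11.88 and 11.61 on the vector arrays and 12.91, 12.78, 12.75 and 12.79 on the NOD1-line arrays. MRPS9 read 10.83, 10.89, 10.80 and 11.16 on the vector arrays and 9.87, 10.14, 10.68 and 10.46 on the NOD1-line arrays. The first rose by 0.96 and the second fell by 0.63, with separate groups. Of cytosolic ribosomal proteins, 4 of 36 of the large (11.1%) and 1 of 22 of the small subunit (4.55%) were higher. Lower were 3 (8.33%) and 2 (9.09%), against 13% higher and 11.9% lower over all genes. Ribosome biogenesis had 16 of 43 higher and 5 lower. The tricarboxylic acid cycle had 12 of 26 higher (46.2%) and 4 lower, with IDH2 (0.78), IDH3G (0.73) and CS (0.66), citrate synthase, up and GOT1 (−1.10), an aspartate aminotransferase, down. Median spans were 11.8 kb, 6.04 kb and 21.1 kb for the higher members of the complex I, mitochondrial ribosome and cycle lists. Counts for the mitochondrial ribosome were 12 higher and 3 lower, for ribosome biogenesis 8 and 2, and for the tricarboxylic acid cycle 7 and 4, with arrays centred on their medians. Counts for the large cytosolic ribosomal subunit over the 18 settings ran from 0 to 5 higher and from 0 to 6 lower, with 0 higher and 0 lower on arrays centred on their medians, and they moved by over 1.5 times or turned their majority also when vector_noDOX replicate 4 or NOD1_noDOX replicate 2 or NOD1_noDOX replicate 4 was left out. Counts for the small cytosolic ribosomal subunit over the 18 settings ran from 0 to 2 higher and from 0 to 3 lower, with 0 higher and 1 lower on arrays centred on their medians, and they moved by over 1.5 times or turned their majority also when NOD1_noDOX replicate 2 was left out.

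Glycolysis and the hypoxia response had opposite majorities. Of glycolysis genes 7 of 21 were higher (33.3%) and 2 lower, and of hypoxia response genes 4 of 20 were higher and 9 lower (45.0%, median −0.27). BNIP3, a mitophagy receptor, read 11.90, 11.54, 11.60 and 11.61 on the vector arrays and 10.33, 10.35, 10.53 and 10.07 on the NOD1-line arrays. PDK1, a kinase that restrains pyruvate dehydrogenase, read 10.82, 10.96, 10.98 and 11.31 on the vector arrays and 9.85, 9.82, 10.08 and 9.74 on the NOD1-line arrays. ENO1, enolase, read 13.59, 13.51, 13.33 and 12.87 on the vector arrays and 14.10, 14.25, 13.86 and 14.26 on the NOD1-line arrays. BNIP3 and PDK1 were lower and ENO1 higher on every NOD1-line array. BNIP3 fell 2.54-fold (log2 difference −1.34, SE 0.157, adjusted p = 9.43e-07), PDK1 2.21-fold (log2 difference −1.14, SE 0.169, adjusted p = 1.76e-05), and BNIP3L (−1.22) and DDIT4 (−0.71), an mTOR inhibitor, fell beside them. HIF1A (−0.49), the oxygen-regulated factor itself, was lower and its partner ARNT (0.83) higher. Of glycolytic genes ALDOA (0.83), PKM (0.58) and the glucose transporter SLC2A1 (0.87) rose. The lower hypoxia genes had a median span of 22.5 kb, near the 24.5 kb of all genes, against 63.5 kb for the 4 higher ones. All 9 lower genes were lower again with DOX.

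Genes of splicing, the proteasome and translation were more often higher, and those of message decay went both ways. The spliceosome had 23 of 50 higher (46.0%) and 4 lower, with PRPF19 (0.78) and SF3A1 (0.71) up and the helicase gene DDX46 (−0.74) down. The proteasome had 19 of 42 higher (45.2%) and 2 lower. PSMC3, an ATPase of its cap, read 11.57, 11.55, 11.64 and 11.68 on the vector arrays and 12.27, 12.56, 12.03 and 12.61 on the NOD1-line arrays. All NOD1-line arrays were above the vector arrays (log2 difference 0.76, SE 0.105, adjusted p = 8.12e-06), as they were for ADRM1 (0.70), a ubiquitin receptor. Translation factors had 18 of 42 higher (42.9%) and 8 lower (19.0%). EIF5B, the factor of subunit joining, read 13.50, 13.43, 13.52 and 13.57 on the vector arrays and 12.62, 12.08, 12.48 and 12.43 on the NOD1-line arrays. EIF3B read 11.47, 11.11, 11.07 and 11.29 on the vector arrays and 11.72, 12.06, 11.74 and 12.01 on the NOD1-line arrays. EIF5B fell by 1.10 and EIF3B rose by 0.65, and within the same complex EIF3A (−0.73) fell and EIF3G (0.66) rose. In message decay UPF2 (−1.24) and XRN1 (−1.12), an exonuclease, fell and EXOSC4 (0.61) rose, with 9 higher and 7 lower of 36. Lower members spanned 67.8 kb, 55.0 kb and 25.9 kb in the proteasome, spliceosome and translation lists, against 10.6 kb, 16.9 kb and 13.5 kb for the higher. Counts for the spliceosome were 11 higher and 3 lower, for the proteasome 6 and 1, for translation factors 6 and 5, and for message decay 5 and 7, with arrays centred on their medians. Counts for the proteasome were 11 higher and 0 lower, and for message decay 5 and 5, with only the 8 arrays compared. Counts for the proteasome were 12 higher and 0 lower without NOD1_noDOX replicate 2.

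Lysosomes degrade what phagocytes take up. Of their hydrolase and membrane protein genes 19 of 46 were higher (41.3%) and 3 lower, and 17 of the 19 were higher again with DOX. TPP1, a tripeptidyl peptidase, read 10.39, 9.84, 9.88 and 9.68 on the vector arrays and 11.26, 11.26, 10.91 and 11.25 on the NOD1-line arrays. PSAP, the precursor of sphingolipid activators, read 11.06, 10.76, 10.70 and 10.98 on the vector arrays and 11.48, 11.74, 11.21 and 11.71 on the NOD1-line arrays. The groups were separate for both, TPP1 rising 2.33-fold (log2 difference 1.22, SE 0.143, adjusted p = 9.06e-07). The proton pump that acidifies the organelle, the V-ATPase, had 10 of 20 genes higher (50.0%) and 1 lower. ATP6V0B read 9.95, 9.76, 9.67 and 9.62 on the vector arrays and 10.93, 11.26, 10.99 and 11.25 on the NOD1-line arrays. ATP6V0D1 read 10.43, 10.06, 9.53 and 9.88 on the vector arrays and 10.92, 11.43, 10.54 and 11.27 on the NOD1-line arrays. Neither overlapped, and ATP6V0A1 (0.66) and ATP6V0C (0.62) of the same membrane sector were also higher. Glycosylation and GPI anchor genes had 16 of 51 higher (31.4%) and 5 lower, with GANAB (0.88) and DDOST (0.77) up. Counts for the lysosome list were 9 higher and 2 lower, for the V-ATPase 5 and 0, and for the glycosylation list 10 and 5, with arrays centred on their medians. Counts for the V-ATPase were 6 higher and 0 lower with only the 8 arrays compared. Counts for the glycosylation list were 10 higher and 3 lower without NOD1_noDOX replicate 2.

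**Figure D5:**
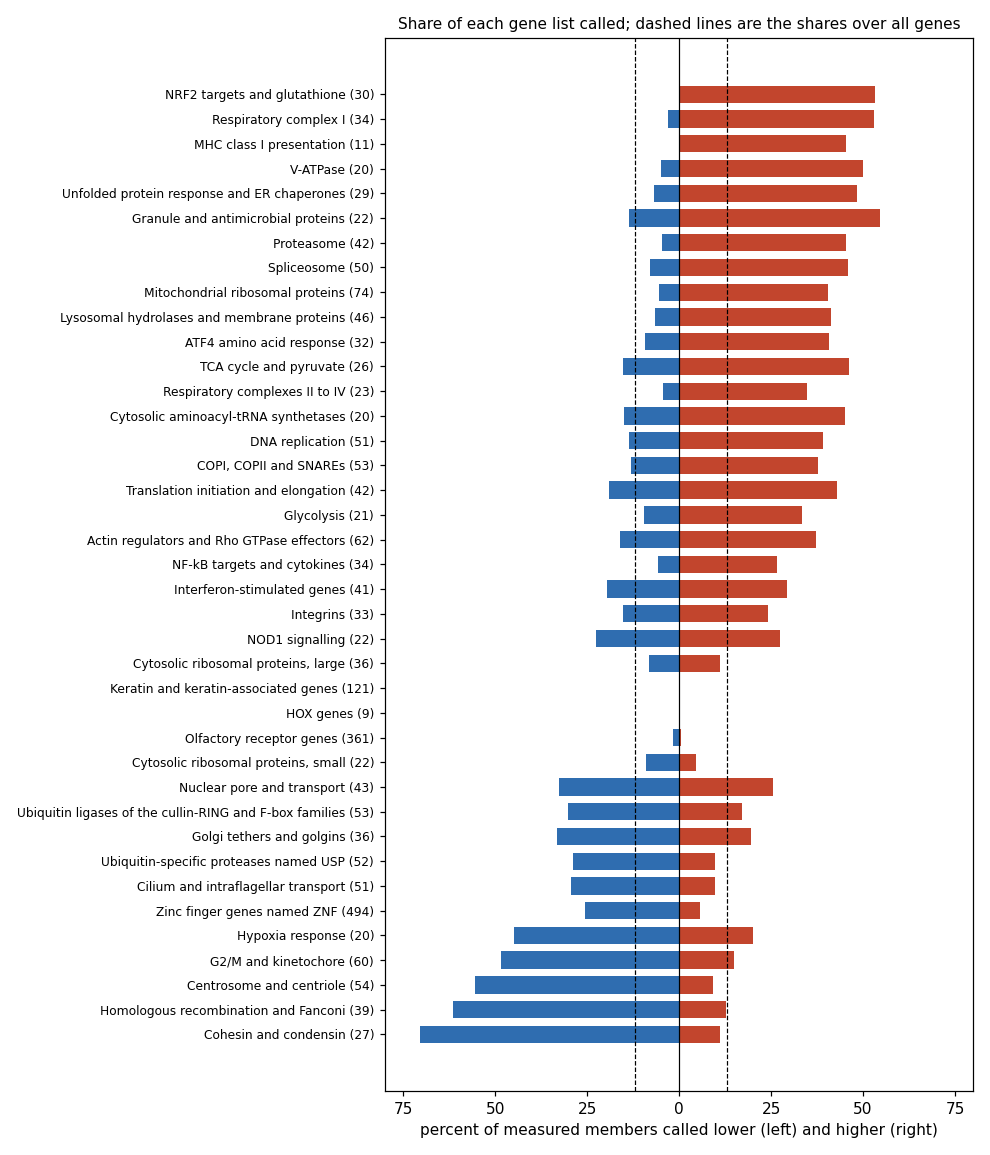
Percent of the measured members of 39 gene lists called lower (blue, to the left) and higher (red, to the right) in the uninduced NOD1 line; the number of measured members is in brackets, and dashed lines mark the 11.9% lower and 13% higher over all genes. Cohesin, recombination and centrosome genes extend furthest to the left and NRF2, complex I and granule genes to the right.

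Of 17 THP-1 and monocyte markers 12 were higher and 2 lower, with a median of 0.48. CD68, a lysosomal glycoprotein of macrophages, read 11.96, 11.49, 11.42 and 11.09 on the vector arrays and 12.76, 12.75, 12.52 and 12.70 on the NOD1-line arrays. CSF1R, the receptor for macrophage colony-stimulating factor, read 9.12, 9.14, 8.90 and 8.87 on the vector arrays and 9.69, 9.73, 9.41 and 9.67 on the NOD1-line arrays. CLEC12A, an inhibitory lectin, read 8.19, 8.86, 9.08 and 8.85 on the vector arrays and 7.85, 8.11, 8.01 and 8.10 on the NOD1-line arrays. CD68 and CSF1R were higher and CLEC12A lower on all 4 NOD1-line arrays. Granule and antimicrobial genes had 12 of 22 higher (54.5%) and 3 lower: the calcium-binding S100A8 (2.25) and the azurophil proteins AZU1 (0.87) and PRTN3 (0.61) rose, and SRGN (−0.55), the proteoglycan that packs granules, fell. Of myeloid transcription factors 11 of 29 were higher, with NFE2 (0.71) and GFI1 (0.61), and 3 lower, with MEF2C (−0.76). Limma called 0 of 9 HOX genes, and 1 was higher and 1 lower at an unadjusted p under 0.05. Counts for the monocyte markers were 7 higher and 2 lower, for granule genes 6 and 3, and for myeloid transcription factors 7 and 4, with arrays centred on their medians. Counts for myeloid transcription factors were 7 higher and 2 lower with only the 8 arrays compared.

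Receptors and adhesion genes were mixed. Among growth factor and cytokine receptors 8 of 33 were higher, KIT (1.89), the stem cell factor receptor, among them, and 2 lower. FLT3, a receptor of progenitors, read 10.49, 10.27, 10.16 and 10.28 on the vector arrays and 10.91, 11.12, 11.22 and 10.83 on the NOD1-line arrays. IFNAR1, a subunit of the alpha and beta interferon receptor, read 11.77, 11.72, 11.72 and 11.74 on the vector arrays and 11.03, 10.59, 11.22 and 10.87 on the NOD1-line arrays. IL6R read 10.01, 9.84, 9.89 and 9.32 on the vector arrays and 10.52, 10.84, 10.30 and 10.27 on the NOD1-line arrays. FLT3 and IL6R rose by 0.72 and 0.72 and IFNAR1 fell by 0.81, without overlap. Integrin genes had 8 of 33 higher (24.2%) and 5 lower (15.2%), against 13% and 11.9% over all genes. Within the leukocyte receptors ITGAL (0.75) and ITGB2 (0.64), which form LFA-1, rose while ITGA4 (−0.86) fell. ITGA5, the fibronectin receptor chain, read 9.54, 9.16, 9.04 and 8.84 on the vector arrays and 10.07, 10.22, 9.78 and 10.06 on the NOD1-line arrays. ITGA4, the chain of VLA-4, read 12.34, 12.34, 12.55 and 12.40 on the vector arrays and 11.81, 11.01, 11.75 and 11.60 on the NOD1-line arrays. These went opposite ways with separate groups. NCAM2 (1.21) rose, whereas NCAM1 is among the largest falls.

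Actin regulators had 23 of 62 higher (37.1%) and 10 lower. MYH9, the heavy chain of non-muscle myosin, read 10.33, 9.85, 9.95 and 10.11 on the vector arrays and 11.22, 11.33, 10.62 and 10.98 on the NOD1-line arrays. CFL1, cofilin, which severs filaments, read 12.17, 12.10, 12.04 and 11.87 on the vector arrays and 12.80, 13.12, 12.65 and 12.73 on the NOD1-line arrays. MYH9 and CFL1 rose by 0.98 and 0.78, and neither overlapped. CAPZB (0.91), ARPC1B (0.77) and ACTN1 (0.79) were further rises, and the formin gene DIAPH3 (−1.18) and CDC42BPA (−3.19), a kinase that acts on myosin, fell. Matrix and protease genes had 11 of 52 higher and 5 lower, with LAMC1 (1.10) and NID1 (1.10), of basement membrane, and TIMP1 (0.75) up and ADAM9 (−0.77) down. Lower actin genes spanned 165 kb and higher ones 20.6 kb. Counts for matrix and protease genes were 8 higher and 8 lower with arrays centred on their medians. Counts for matrix and protease genes were 17 higher and 5 lower with all probe sets normalized together.

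Genes of the pathway that carries NOD1's own signal were called in both directions, at shares near those of genes of like signal. Of 22 measured genes 6 were higher (27.3%), NOD1 among them, and 5 lower (22.7%), and with DOX 5 higher and 6 lower. Over all genes the shares were 13% and 11.9%. For all genes with a mean signal from 9.65 to 10.42 they were 27.2% and 21.4%. SLC15A4, which exports muramyl peptides from endosomes, read 10.21, 9.65, 10.39 and 10.07 on the vector arrays and 11.09, 10.79, 11.01 and 10.68 on the NOD1-line arrays. TRAF6, a ubiquitin ligase, read 8.97, 9.16, 9.20 and 9.33 on the vector arrays and 9.64, 9.52, 9.85 and 10.06 on the NOD1-line arrays. ERBIN, a scaffold that binds NOD2, read 13.19, 12.96, 13.14 and 13.21 on the vector arrays and 12.50, 11.60, 12.46 and 12.10 on the NOD1-line arrays. SLC15A4 and TRAF6 were higher and ERBIN lower on all 4 NOD1-line arrays. RNF31 (0.60), of the linear ubiquitin complex, whose second probe set was not called (0.34), and TNFAIP3 (0.58), the deubiquitinase A20, rose, and MAP3K7 (−0.40), the kinase TAK1, fell. Counts for the NOD1 pathway were 5 higher and 6 lower with arrays centred on their medians.

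NF-kB targets and cytokines had 9 of 34 higher (26.5%) and 2 lower, with a median of 0.18, and 5 of the 9 were higher again with DOX. NFKBIA, the feedback inhibitor, read 9.90, 9.76, 9.69 and 9.74 on the vector arrays and 10.86, 11.15, 10.60 and 11.22 on the NOD1-line arrays. TNF read 7.99, 8.21, 8.25 and 8.10 on the vector arrays and 8.37, 8.92, 9.14 and 9.27 on the NOD1-line arrays. IL1B read 7.40, 7.53, 7.73 and 7.96 on the vector arrays and 8.11, 8.63, 9.11 and 8.21 on the NOD1-line arrays. The NOD1-line arrays lay above the vector arrays for all 3. NFKBIA rose 2.27-fold (log2 difference 1.18, SE 0.145, adjusted p = 1.74e-06), TNF at least 1.73-fold (log2 difference 0.79, SE 0.138, adjusted p = 1.29e-04) and IL1B at least 1.81-fold (log2 difference 0.86, SE 0.195, adjusted p = 0.00173). With DOX their line differences were 1.01, 0.35 and 0.16. RELA (0.68), the activating subunit, rose and REL (−0.46) fell. Inflammasome genes had 6 of 22 higher and 2 lower, with CASP1 (0.87), PYCARD (0.57), the adaptor ASC, and NLRP3 (0.53) up and NAIP (−0.69) down. Of MAPK and immediate early genes 10 of 38 were higher, with JUN (0.66), EGR1 (0.55) and MAPK3 (0.88), and 2 lower, with SPRED1 (−1.21), a RAS pathway inhibitor. Counts for MAPK and immediate early genes were 6 higher and 1 lower with only the 8 arrays compared. Counts for MAPK and immediate early genes were 6 higher and 3 lower with only the 12 arrays without DOX. Counts for MAPK and immediate early genes were 16 higher and 2 lower with all probe sets normalized together.

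TLR4, the receptor for lipopolysaccharide, read 9.45, 10.12, 10.06 and 10.09 on the vector arrays and 8.66, 8.53, 9.02 and 9.04 on the NOD1-line arrays. It was lower on every NOD1-line array (log2 difference −1.12, SE 0.155, adjusted p = 8.3e-06). In the Toll-like receptor list 3 of 19 were higher and 3 lower (15.8% each way), near the 13% and 11.9% over all genes. With DOX 1 was higher and 1 lower. Class I antigen presentation had 5 of 11 genes higher and 0 lower by limma, and 1 lower at an unadjusted p under 0.05. The immunoproteasome genes PSMB8 (0.84) and PSMB10 (0.73) and the peptide transporter TAP1 (0.61) were among the rises. Class II had 3 of 12 higher and 2 lower. Complement and Fc receptor genes had 4 of 20 higher, with C2 (0.51) beside C3, and 2 lower, with C5 (−0.96). Counts for the Toll-like receptor list were 1 higher and 2 lower with only the 8 arrays compared. Counts for complement and Fc receptors were 2 higher and 2 lower (of 10 left) with dim genes left out. Counts for the Toll-like receptor list were 1 higher and 1 lower without NOD1_noDOX replicate 4. Counts for the Toll-like receptor list were 1 higher and 2 lower without vector_noDOX replicate 3. Counts for class II presentation over the 18 settings ran from 1 to 3 higher and from 0 to 2 lower, with 1 higher and 2 lower on arrays centred on their medians, and they moved by over 1.5 times or turned their majority also when vector_noDOX replicate 3 or vector_noDOX replicate 4 or NOD1_noDOX replicate 1 or NOD1_noDOX replicate 2 or NOD1_noDOX replicate 4 was left out.

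Interferon-stimulated genes divided: 12 of 41 were higher (29.3%) and 8 lower (19.5%), and 9 and 6 of these were called the same way with DOX. IFI27 read 8.57, 9.17, 8.93 and 8.78 on the vector arrays and 10.37, 10.45, 9.91 and 10.19 on the NOD1-line arrays. IFI6 read 8.10, 8.88, 8.64 and 8.82 on the vector arrays and 9.24, 9.42, 9.25 and 9.30 on the NOD1-line arrays. DDX60, a helicase of RNA sensing, read 9.14, 9.67, 9.62 and 9.41 on the vector arrays and 8.74, 8.51, 8.47 and 8.63 on the NOD1-line arrays. HERC5, the ligase of ISG15, read 8.73, 9.27, 9.46 and 9.29 on the vector arrays and 8.31, 8.30, 8.05 and 7.68 on the NOD1-line arrays. The first pair was higher and the second lower without overlap. TRIM22 (0.75) and IFI35 (0.73) rose with IFI27. The core of the interferon-stimulated response element, GAAA on both sides of 2 other bases, was in 4.12% of all measured genes with a promoter, in 8 of the 10 higher and 3 of the 6 lower members with one. It is in capitals in stretches of IFI6 and IFI27, which rose, and of SAMD9 and DDX60, which fell.
IFI6 (chr1:27672314-27672373, minus strand): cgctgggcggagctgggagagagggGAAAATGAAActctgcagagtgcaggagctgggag
IFI27 (chr14:94110616-94110675, plus strand): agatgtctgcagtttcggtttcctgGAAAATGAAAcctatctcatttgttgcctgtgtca
SAMD9 (chr7:93118081-93118140, minus strand): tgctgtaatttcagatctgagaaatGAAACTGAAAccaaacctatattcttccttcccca
DDX60 (chr4:168318806-168318865, minus strand): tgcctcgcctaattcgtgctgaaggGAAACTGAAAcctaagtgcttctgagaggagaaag
Members with and without these letters moved in either direction. Counts for interferon-stimulated genes were 6 higher and 6 lower with only the 8 arrays compared.

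Lipid genes had few common directions. Cholesterol synthesis had 3 higher and 4 lower of 23, with IDI1 (−0.61) and CYP51A1 (−0.73) down. A second probe set of CYP51A1 was not called (−0.19). Fatty acid and lipid droplet genes had 8 of 29 higher, with the elongase ELOVL1 (0.78), AGPAT2 (0.68) and ACLY (0.54), and 3 lower, with CD36 (−0.68), a scavenger receptor for fatty acids. Fatty acid oxidation genes had 10 of 32 higher and 3 lower. CPT1A, the gatekeeper of mitochondrial fatty acid import, read 9.70, 9.74, 9.65 and 9.45 on the vector arrays and 10.58, 10.59, 10.34 and 10.73 on the NOD1-line arrays. CD36 read 9.83, 9.88, 10.00 and 10.03 on the vector arrays and 9.26, 9.24, 9.26 and 9.26 on the NOD1-line arrays. CPT1A was above and CD36 below the vector arrays throughout. Glycogen genes had 4 higher (17.4%) and 5 lower (21.7%) of 23, with GYS1 (0.80), glycogen synthase, up. PPP1R3A, a targeting subunit for the phosphatase of glycogen synthase, had the largest fall of all (−3.42). In the PI3K and mTOR list 16 of 41 were higher, with MTOR (0.62) and RPS6KB2 (0.57), and 6 lower, with PIK3R1 (−0.67). Counts for fatty acid oxidation were 5 higher and 4 lower with arrays centred on their medians. Counts for glycogen genes over the 18 settings ran from 2 to 7 higher and from 3 to 6 lower, with 2 higher and 5 lower on arrays centred on their medians, and they moved by over 1.5 times or turned their majority also when NOD1_noDOX replicate 2 was left out.

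Limma called 0 of 121 keratin genes (unadjusted p under 0.05 in 1 higher and 3 lower) and 2 higher and 6 lower of 361 olfactory receptor genes. Small nucleolar RNAs had 17 of 192 lower (8.85%) and 3 higher (1.56%), both under the 11.9% and 13% over all genes. Of these, 5 and 0 were called the same way with DOX. Taste receptors had 8 of 27 lower (29.6%) and 0 higher by limma, with a median of −0.34. TAS2R20 read 8.77, 7.59, 8.41 and 8.48 on the vector arrays and 7.02, 6.92, 6.76 and 6.78 on the NOD1-line arrays. TAS2R50 read 7.86, 7.09, 7.75 and 7.40 on the vector arrays and 6.19, 6.37, 6.30 and 6.04 on the NOD1-line arrays. Both were dim in the NOD1 line and separated between the lines. Solute carriers had 49 of 376 higher and 33 lower, against 13% and 11.9% over all genes. Counts for small nucleolar RNAs were 3 higher and 10 lower in the values as deposited. Counts for taste receptors were 0 higher and 0 lower (of 3 left) with dim genes left out. Counts for olfactory receptors over the 18 settings ran from 0 to 16 higher and from 2 to 21 lower, with 1 higher and 21 lower on arrays centred on their medians, and they moved by over 1.5 times or turned their majority also when NOD1_noDOX replicate 2 was left out. Counts for solute carriers over the 18 settings ran from 24 to 78 higher and from 25 to 41 lower, with 36 higher and 41 lower on arrays centred on their medians, and they moved by over 1.5 times or turned their majority also when NOD1_noDOX replicate 2 was left out.

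Genes next to each other on a chromosome sometimes moved together. The median difference was taken over each run of 41 neighbouring measured genes, and over all 17448 runs it lay between −0.16 and 0.18 in the middle 90%. The highest, from PPCS to SNORD38A on chromosome 1, had a median of 0.41 with 22 genes higher and 0 lower, and 0.43 with DOX. ATP6V0B (1.36), MED8 (1.00), CDC20 (0.94) and SLC2A1 (0.87) lie in it. Also on chromosome 1, MANEAL to CTPS1 had a median of 0.34 with 23 higher and 2 lower, and holds PPIE (1.18), NFYC (0.93) and MTF1 (0.86). On chromosome 11, GPHA2 to FIBP had 0.32 with 21 higher and 1 lower, and holds CDCA5 (1.10), DPF2 (1.21), POLA2 (0.78), CFL1 (0.78), KAT5 (0.71) and RELA (0.68).

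The lowest run, from CLEC14A to TMX1 on chromosome 14, had a median of −0.46 with 2 genes higher and 24 lower, and −0.36 with DOX. FANCM (−1.49), PRPF39 (−0.90) and SOS2 (−0.89) lie in it. CCNO to SGTB on chromosome 5 had −0.40 with 2 higher and 21 lower, with DHX29 (−0.94), CENPK (−0.98) and GAPT (−1.07). PBX4 to ZNF254 on chromosome 19, a zinc finger cluster, had −0.39 with 4 higher and 19 lower, with ZNF675 (−1.07), ZNF91 (−1.35) and ZNF254 (−1.18). The NLRP4 line had medians from −0.04 to 0.07 over these 6 runs. Their genes also differed in span, with medians of 12.2, 16.5 and 7.59 kb in the high runs and 32.9, 79.1 and 34.4 kb in the low ones. The part of span in these runs was not tested.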

How the data were processed

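Total RNA of 24 samples was measured on Affymetrix Human Gene ST arrays, 4 in each of 6 groups of line and DOX treatment. The authors deposited log2 signals, 1 per probe set and array. RMA, which corrects background, normalizes and summarizes probes, and the oligo package were used per the submitters' processing notes. Their versions and the genome build behind the array are not given in the sources used.

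Deposited array medians ran from 8.06 to 8.85, so the gene table was quantile-normalized between arrays with limma, since array brightness could otherwise enter a comparison. Of 33297 probe sets, 19460 had 1 gene symbol in the platform annotation, and 1754 had more than 1. The remaining 12083 had no name in it. Entrez IDs gave current symbols from a RefSeq table of GRCh38.p14 (19429 matched). A gene was represented by its probe set of highest mean, giving 18417 genes, and 769 of these had several probe sets. No filter on dim genes was applied.

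Each gene was fitted as 6 group means over all 24 arrays (18 residual degrees of freedom) in R 4.3.3 with limma 3.58.1 and empirical Bayes moderation. Adjusted p-values are limma's with Benjamini-Hochberg adjustment over 18417 genes, and a call is one under 0.05. No set test was run. Gene lists were described by counts and medians, promoter motifs were searched in Python 3.11.15, and spans come from the RefSeq table. The 88 gene lists, the naming rule and the motifs were chosen with earlier results of these data known.

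Genes in the text were taken from a set fixed by a rule, and not all of that set are printed: NOD1 and NLRP4, the 30 largest rises and 30 largest falls among called genes with separated arrays, up to 6 called members of a list with the lowest p in its majority direction and up to 3 in the other, the 3 with the lowest p of a list without a call, the ends and up to 6 called members of a run of neighbours, and the marker lists. LONRF3 and DEPTOR are outside it. Where a gene of the 30 rises or 30 falls is said not to overlap, that was a condition of its rank. On simulated arrays in which 200 of 18417 genes were changed, made 10 times, the uninduced comparison called 58.8%, 97.9% and 99.8% of genes changed by 0.5, 1 and 2 on the log2 scale, and 3.88% of calls were false. The real comparison called 4592 genes, so these rates may not carry over to it. Alternatives covered the scaling, the arrays fitted, array weights, a trended prior, dim genes, probe set summaries and leaving out each array; fitting each line comparison on its own 8 arrays was added after the data were seen. Precision is limited by having 4 arrays in a group.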

Additional observations from a re-analysis of the deposited data

Results flagged for a closer look

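In 9 of 176 groups of 4 arrays checked, the gap between 1 array and the nearest of the other 3 took up most of the group's range. The 176 are those of the 88 genes whose array values are printed. Chance flags about 1 in 20 such groups. The gap itself can be small, as for CD36 and LYZ. In the NOD1 line the lowest array stood apart for CD36 (9.24, the others 9.26 to 9.26), LYZ (13.78, the others 13.87 to 13.88), RANBP2 (10.90, the others 11.72 to 11.81) and TPP1 (10.91, the others 11.25 to 11.26). The highest NOD1-line array stood apart for CEP135 (9.94, the others 9.35 to 9.43) and TIMP3 (13.08, the others 12.92 to 12.93). In the vector line the lowest array stood apart for TLR4 (9.45, the others 10.06 to 10.12) and ZNF544 (7.83, the others 7.97 to 7.99), and the highest for USP53 (9.85, the others 9.61 to 9.63).

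The line difference of NOD1 itself was larger with DOX than without, by 3.95 on the log2 scale (SE 0.19, limma adjusted p = 2.61e-12).

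Probe sets outside the gene table also differed between the uninduced lines. Among 12083 unnamed probe sets limma called 1526, 668 higher and 858 lower. Among 1754 probe sets with several gene symbols it called 408, 217 higher and 191 lower. For the uninduced NLRP4 line against the same vector arrays, limma called 0 of either kind.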

How the results depend on the processing

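Alternatives for the uninduced comparison called from 3287 genes (only the 8 arrays compared) to 5468 (all probe sets normalized together), against 4592, and no call turned its sign in any. Leaving out 1 array gave 3779 (without NOD1_noDOX replicate 2) to 4779 (without NOD1_noDOX replicate 3). Centring arrays on their medians lowered the genes called higher from 2399 to 1398 and those higher again with DOX from 1749 to 1071. Fitting each line comparison on its own 8 arrays gave 1342 higher and 1463 lower in both. In the values as deposited, the DOX-treated NOD1 line had 1632 genes higher than the vector line, against 2502, and 1523 higher and 3677 lower than the NLRP4 line, against 2465 and 2219. The NLRP4 line with DOX against the vector line had 7 calls, 2 higher and 5 lower. It had 1 (1 and 0) as deposited, 2 (1 and 1) with centred arrays, 18 (7 and 11) with array weights and 3 (1 and 2) with all probe sets normalized together; 1 was higher with dim genes left out. The cause of these shifts was not tested. Of the 278 genes in the text, 8 crossed the threshold under at least 1 of 17 alternatives, and none changed direction while called. Most of these genes were chosen for a low p or a large change, so their calls hold more often than calls in general. Of all 2399 rises and 2193 falls, 1383 and 2063 were kept with arrays centred on their medians. With only the 8 arrays compared, 1602 and 1649 were kept. No paired analysis was possible because the labels give the arrays of different lines no shared replicate numbers. With 4 arrays per group, changes of 0.5 on the log2 scale were called in 58.8% of simulated cases, so small differences may be missed.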
